A study of Mus musculus with 150 samples.

Results

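The comparison described here set 10 arrays of DBA mice against 10 arrays of B6 mice, with 1 array of each strain for each of 10 body tissues, namely adrenal, brown fat, heart, kidney, liver, muscle, spleen, testes, thymus and white fat. These 20 arrays were taken by their strain and tissue labels from the 150 of the series. The series covers neural tissues and body tissues of inbred mouse strains, and the other body arrays came from the strains 129, AJ and C3H, with 10 arrays each. All groups are labelled as untreated wild type animals of an inbred strain, and total RNA was turned into biotinylated cRNA and hybridised to 1-colour Affymetrix arrays. Substrain, age and sex are not given in the labels used here, apart from what testes imply, and the number of animals behind an array is not given either. The titles carry codes that several tissues of a strain share, so tissues may come from the same animals or pools, and the p-values below measure only the spread between these samples.

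DBA and B6 are old inbred lines, each homozygous at nearly every locus. A gene may therefore differ between them in the same direction in all tissues through a fixed sequence variant, a change of copy number, a deletion or an insertion, and several such loci are well known in this pair, among them the class II gene H2-Ea, the heme synthesis gene Alad and the methylglyoxal-detoxifying gene Glo1. On a short-oligonucleotide array, a base difference under the probes can also lower the intensity of a probe set in 1 strain while the amount of RNA is equal. Single-probe signals were not analysed here, so a sequence difference under the probes and a difference in RNA amount cannot be told apart for any single probe set. For that reason the tested probe sets of most named called genes are given side by side. The values of their sets that were too dim to be tested in body tissues are not given.

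The deposited intensities ran at similar levels on all 20 arrays. The median intensity lay between 38.4 and 60.6, the 75th percentile between 169 and 182, and the ratio of the 3′ to the 5′ Gapdh probe set, a sign of RNA quality, between 0.896 and 1.27. Between 16.4% and 25.8% of the probe sets of an array lay at or below an intensity of 10.4, which served as the floor before log2 values were taken. The tissue labels were checked against cell type markers. Each tissue's own markers were high in both strains, but some arrays also carried markers of another tissue. The summed intensity of 10 skeletal muscle probe sets was 440.4 in DBA brown fat and 11752 in B6 brown fat. That of 5 liver probe sets was 104 in DBA thymus and 2695 in B6 thymus, and in the adrenal it was 2577 in DBA and 265 in B6. The 8 thymocyte probe sets summed to 159 in DBA muscle and 1027 in B6 muscle. In such bulk samples, fewer cells of a type and less RNA per cell cannot be told apart.

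Of 9149 probe sets tested, 107 were called, which is 1.17%. Of these, 44 were higher in DBA (0.481%) and 63 were lower (0.689%). A call required an adjusted p under 0.05 in limma's moderated test with tissue as a term (Benjamini-Hochberg adjustment over all 9149 probe sets) and a difference of at least 1.5-fold. The adjusted p alone gave 141 probe sets, and an unadjusted p under 0.05 gave 1458. The called probe sets carried 86 genes through 93 sets with a single symbol, and the other calls comprised 11 sets with several symbols and 3 with none. At least a 2-fold difference was seen in 43 of the 107, 16 higher and 27 lower in DBA, and at least a 4-fold difference in 10. The median difference over all tested probe sets was -0.03 on the log2 scale.

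Most called differences pointed the same way in every tissue. In 70 of the 107 called sets (65.4%) all 10 tissues had the same sign, 29 of them higher in DBA and 41 lower. A further 30 sets had 9 tissues with the same sign and 7 had 8. Over all 9149 tested probe sets, 149 (1.63%) had the same sign in 10 of 10 tissues. Since the call itself rests on the mean of the paired differences relative to their spread, this consistency is partly what the test selects, and it is given as a description. The call count rested on fitting the tissue term: without it, 12 probe sets were called, 4 higher and 8 lower in DBA. It was 20, 6 higher and 14 lower, when adrenal, brown fat, muscle and thymus were all left out, and that fit has 6 pairs. In these tissues the marker sums of another tissue given above differed between the strains. Both adrenal arrays also carried brown fat markers, with sums over 5 sets of 4629 in DBA and 5739 in B6. The tissues kept were not free of such markers. In kidney, 5 brown fat sets summed to 249 in DBA and 1302 in B6, and in white fat 8 germ cell sets summed to 351 and 1041.

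**Figure D1:**
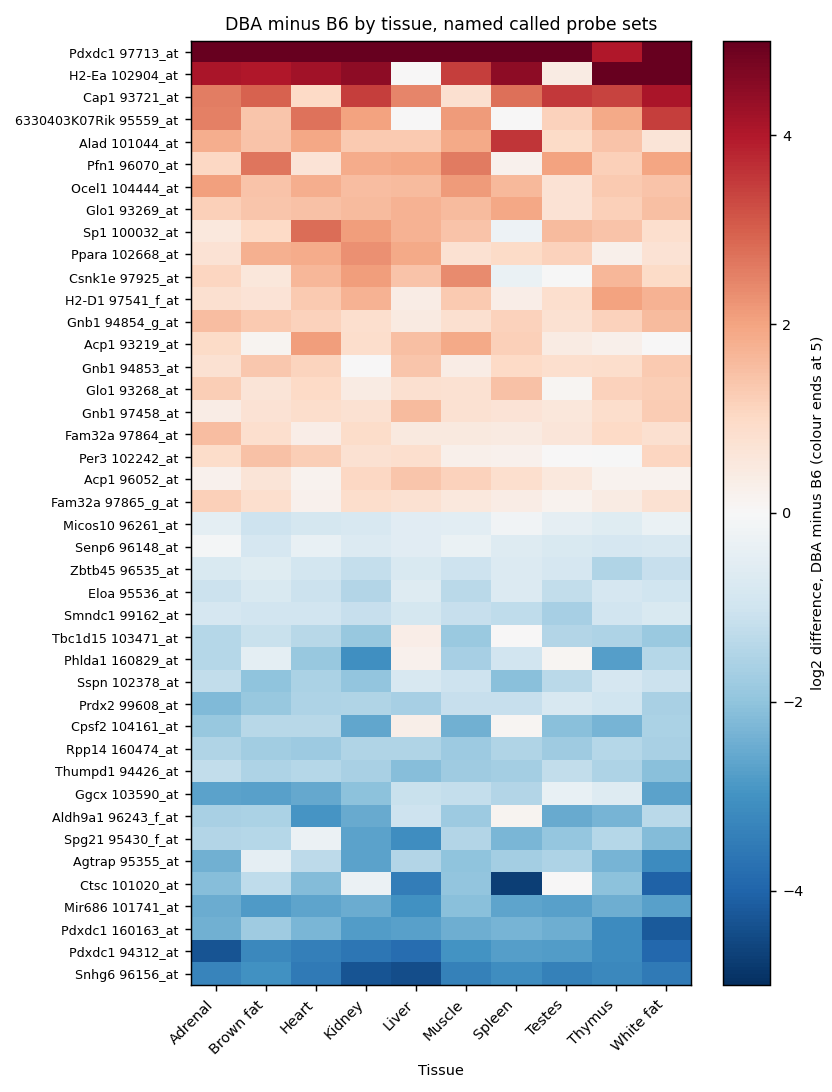
Log2 difference, DBA minus B6, in each of the 10 body tissues (columns) for the named called probe sets (1 per line, ordered by their mean difference). Red is higher in DBA and blue is lower, with the colour scale ending at 5; Pdxdc1 97713_at was higher in all 10 tissues, Snhg6 96156_at was lower in all 10, and H2-Ea 102904_at was level in liver, where both strains lay at the floor.

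The gene with the largest called difference among those of the immune system was H2-Ea, the alpha chain of the class II molecule E, which presents peptides to CD4 T cells and pairs with the beta chain encoded by H2-Eb1. Mice of the H2 b haplotype, B6 among them, are known to make no E alpha chain because of a deletion at the promoter of H2-Ea. In DBA, the H2-Ea probe set 102904_at had intensities from 0 in liver over a median of 184 to 2004 in thymus, and in B6 it ran from -1.49 over a median of 1.35 to 8.14. All 10 B6 arrays lay below the floor of 10.4, and 9 of 10 DBA arrays lay above it, the exception being liver at 0 in DBA against -1.33 in B6. The log2 difference was 3.93 ± 0.60 (SE, adjusted p = 0.00293) with the B6 arrays and DBA liver raised to the floor, so its size depends on the floor. It was 2.56 with the floor at the 40th percentile and 5.15 with the floor at the 10th.

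The order of H2-Ea over DBA tissues differed from that of H2-Eb1, H2-Aa and Cd74, while H2-Ab1 was also lower in DBA spleen than in DBA thymus. H2-Ea had 2004 in DBA thymus, 991 in DBA white fat and 232 in DBA spleen, so spleen was well below thymus. For its partner H2-Eb1 the DBA values were 1667 in thymus, 917 in white fat and 3676 in spleen, with spleen the highest. H2-Aa, the alpha chain of the class II molecule A, had 2418 in DBA thymus and 4336 in DBA spleen, and Cd74, the invariant chain that guides class II molecules to endosomes, had 4476 and 7999 in the same arrays. H2-Ab1, another class II gene, had 1597 in DBA thymus and 1398 in DBA spleen, a smaller gap in the same direction as H2-Ea. In B6 it had 837 in thymus and 3439 in spleen. With 1 array for each tissue and strain, these tissue orders have no replicate, and the labels of the DBA spleen and thymus arrays may need a check. At the set Pdxdc1 97713_at, which separates DBA from B6, DBA spleen had 346 and DBA thymus 338, against 5.95 in B6 spleen and 21.3 in B6 thymus. This set was also high in C3H, at 296 to 1459 in 9 arrays, so it cannot tell DBA from C3H. The 8 thymocyte probe sets summed to 10521 in DBA thymus and 359 in DBA spleen.

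The rest of the class II list did not share the strain difference. Of 12 tested probe sets of the list, 1 was called (8.33%, beside 1.17% of all tested sets), that of H2-Ea, and the median difference of the list was -0.09 on the log2 scale, beside -0.03 over all tested probe sets. H2-Eb1 had 3676 in DBA spleen and 4787 in B6 spleen, and 1667 in DBA thymus and 1099 in B6 thymus. In adrenal it had 118 in DBA and 584 in B6, in kidney 241 in DBA and 130.2 in B6, and in liver 39.8 in DBA and 82.2 in B6. H2-Aa had 4336 in DBA spleen and 5814 in B6 spleen. In B6, then, the set of the E beta chain was above the floor in all 10 tissues, in some above and in others below its DBA level, while the E alpha set was at the floor. The promoters of these 2 class II genes are shown because a short promoter element, the Y box, is shared by class II genes. Both are RefSeq sequences of the build GRCm38.p6, from 250 bases before to 50 bases after the start of the gene, read on the gene's strand, with the letters CTGATTGG in capitals; no promoter of H2-Ea was used here.
H2-Aa, chr17:34287774-34288073, minus strand: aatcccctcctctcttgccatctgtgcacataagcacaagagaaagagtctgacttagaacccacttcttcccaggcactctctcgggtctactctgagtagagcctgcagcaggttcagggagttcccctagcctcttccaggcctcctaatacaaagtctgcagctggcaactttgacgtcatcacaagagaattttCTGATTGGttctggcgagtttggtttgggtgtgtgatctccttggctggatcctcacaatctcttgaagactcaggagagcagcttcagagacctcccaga
H2-Eb1, chr17:34305617-34305916, plus strand: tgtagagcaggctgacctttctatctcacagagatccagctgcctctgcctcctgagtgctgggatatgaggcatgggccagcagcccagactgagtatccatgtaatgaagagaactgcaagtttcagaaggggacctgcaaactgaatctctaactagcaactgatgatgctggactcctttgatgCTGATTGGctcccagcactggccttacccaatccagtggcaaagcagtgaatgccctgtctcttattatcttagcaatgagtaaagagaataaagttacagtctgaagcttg
These letters, searched on both strands (CTGATTGG or CCAATCAG), were found in 4 of 9 class II promoters and in 4.1% of 32851 promoters of the same length. The match is a description of the letters and says nothing of binding.

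**Figure D2:**
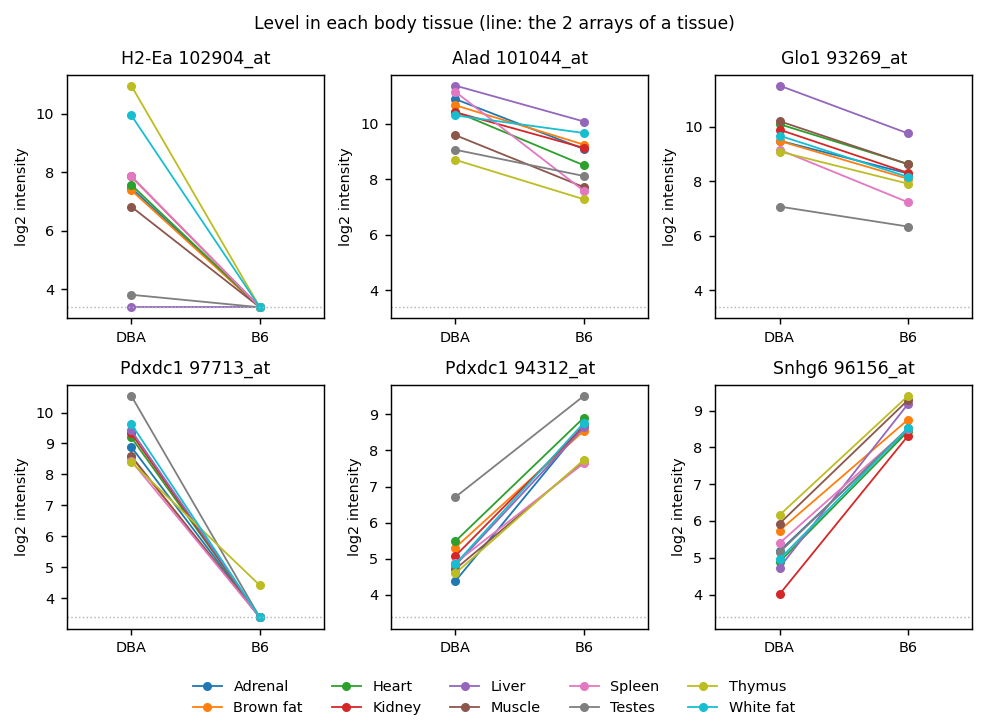
Log2 intensity of 6 probe sets in DBA (left) and B6 (right), with 1 line for each of the 10 tissues joining the 2 arrays of that tissue and a dotted line at the floor. H2-Ea lies at the floor in all 10 B6 arrays, the Alad line is steepest in spleen, and the 2 Pdxdc1 probe sets run in opposite directions.

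Alad, which encodes the second enzyme of heme synthesis, was higher in DBA in every tissue, and mice of the line DBA/2 are known to carry extra copies of this gene. The probe set 101044_at had intensities from 416 to 2667 in DBA (median 1381) and from 155 to 1086 in B6 (median 454). The ranges overlapped across tissues, but DBA was above B6 in 10 of 10 tissues, by 1.62 ± 0.21 on the log2 scale (SE, adjusted p = 0.000774). Spleen stood apart with a difference of 3.58, from 2280.1 in DBA and 191 in B6, while the other 9 tissues ran from 0.64 to 1.94. In spleen, 7 of the 10 heme synthesis sets were at least 2-fold higher in DBA, with a list median of 1.38, against medians between -0.12 and 0.22 in the other tissues. Over all tissues Alad was the only call among the 10 tested heme synthesis sets (10%, beside 1.17% of all tested sets). A single call is no result about that list. Without spleen the Alad difference was 1.40 on the log2 scale.

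Glo1, glyoxalase 1, removes methylglyoxal, a by-product of glycolysis, and its locus is known to be duplicated in some inbred lines, DBA/2 included. Both Glo1 probe sets were called. For 93269_at, DBA intensities ran from 135 to 2916 (median 768) and B6 intensities from 80.9 to 865 (median 299), a log2 difference of 1.43 ± 0.10 (SE, adjusted p = 1.59e-06). For 93268_at, the range was 82.3 to 929 in DBA (median 360.3) and 77.2 to 539 in B6 (median 196), a log2 difference of 0.88 ± 0.12 (SE, adjusted p = 0.00159). DBA was above B6 in 10 of 10 tissues with either set, although the strain ranges overlapped across tissues. These were the 2 calls among 36 tested sets of glyoxalase and glutathione enzymes (5.56%), beside 1.17% of all tested sets, and the median difference of the list was -0.13.

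The other loci with reported differences between these strains gave no call. Alad, H2-Ea and the 2 Glo1 sets made 4 calls among the 8 tested sets of this list (50%, beside 1.17% of all tested sets). The list was drawn up from known differences and is no independent evidence of its direction. Hc, complement component 5, which DBA/2 mice are known to lack as a protein, had intensities from -3.36 to 2303 in DBA and from -4.5 to 1485 in B6, with a log2 difference of 0.20 ± 0.19 (SE, adjusted p = 0.633). Klrd1, the CD94 chain of natural killer cell receptors, had 0.43 to 76.5 in DBA and 5.36 to 209 in B6 and a difference of -0.47 (adjusted p = 0.303). Klrd1 was lower in DBA in 6 tissues and higher in 0. It lay at the floor in 9 DBA and 4 B6 arrays, and Hc in 6 and 7, so the size of both differences depends on the floor. Nnt, the mitochondrial transhydrogenase, and Psph, a serine synthesis phosphatase, differed by -0.23 ± 0.20 and -0.25 ± 0.12 (SE). The 4 sets of Tyrp1, a melanin synthesis gene that gives DBA its brown coat, and the set of Gabra2, a GABA receptor subunit, were too dim in body tissues to be tested.

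Pdxdc1, a gene with a pyridoxal-dependent decarboxylase domain, had the largest difference of all and was the gene whose probe sets were called in opposite directions. For 97713_at, DBA intensities ran from 338 to 1489 (median 531), while B6 intensities ran from -3.99 to 21.3 (median 6.57). The groups did not overlap, and 9 of 10 B6 arrays lay at the floor. The log2 difference was 5.62 ± 0.24 (SE, adjusted p = 2.54e-09), or 49.1-fold with the B6 arrays at the floor, so this fold depends on where the floor is set. The other 2 probe sets ran the other way. With 94312_at, DBA arrays had 20.9 to 105 (median 29.3) and B6 arrays 201 to 731 (median 404), a difference of -3.40 ± 0.16 (SE, adjusted p = 6.32e-09). With 160163_at, DBA arrays had 17.6 to 90.2 (median 32.4) and B6 arrays 106 to 485 (median 178), a difference of -2.65 ± 0.19 (SE, adjusted p = 1.88e-06). For each of the 3 sets the 10 DBA arrays and the 10 B6 arrays did not overlap, and each set kept its direction in 10 of 10 tissues. Testes had the highest DBA value of 97713_at, 1489, against 7.19 in B6 testes, and also the highest DBA value of 94312_at, 105, against 731 in B6 testes.

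Snhg6, the host gene of a small nucleolar RNA, was the probe set with the largest fall in DBA. The array holds 2 sets of Snhg6, of which only 96156_at was tested. DBA intensities of 96156_at ran from 16.1 to 71.5 (median 35.9) and B6 intensities from 319 to 677 (median 368). The lowest B6 array was above the highest DBA array by 2.16 on the log2 scale. The difference was -3.53 ± 0.15 (SE, adjusted p = 2.54e-09), and in single tissues it lay between -4.45 and -3.02.

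A similar gap was seen with 101741_at, which the platform annotation assigns to Mir686, a microRNA gene that lies within Psmb5, a catalytic subunit gene of the proteasome, in RefSeq. Which transcript the set reads was not settled here. DBA arrays had 66.7 to 247 (median 132) and B6 arrays 418 to 1218 (median 822), without overlap. Its difference of -2.61 ± 0.09 (SE, adjusted p = 4.35e-10) varied little between tissues, with an SD of the paired differences of 0.26.

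Among the named probe sets, the strains also did not overlap at 3 further ones that fell in DBA. Overlap was looked up for named sets only, many of them named for their large differences. The share over all tested sets was not worked out. Thumpd1, an adaptor protein for the acetylation of transfer RNA, had 52.7 to 97.4 in DBA (median 70.7) and 184 to 278 in B6 (median 231), a difference of -1.63 ± 0.11 (SE, adjusted p = 1.59e-06). Rpp14, a subunit of ribonuclease P, had 10.6 to 34.9 in DBA (median 22.2) and 36.9 to 117 in B6 (median 66.9) with 160474_at, a difference of -1.63 ± 0.13 (SE, adjusted p = 3.36e-06). Its paired differences had the smallest SD among the named genes, 0.15. Prdx2, a peroxiredoxin abundant in red cells, had 26.1 to 41.4 in DBA (median 35.2) and 66.9 to 182 in B6 (median 89.2) with 99608_at, a difference of -1.46 ± 0.16 (SE, adjusted p = 0.000161).

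Cap1 and Pfn1 were among the 12 largest rises. Cap1, a protein that recycles actin monomers and binds adenylate cyclase, had 42.5 to 335 in DBA (median 106) and 9.6 to 50 in B6 (median 16), a difference of 2.69 ± 0.29 (SE, adjusted p = 0.000161). Pfn1, profilin, which delivers actin monomers to growing filaments, had 219 to 695 in DBA (median 399) and 55.1 to 415 in B6 (median 105), a difference of 1.61 ± 0.22 (SE, adjusted p = 0.00111). For both genes DBA was above B6 in 10 of 10 tissues, and the ranges of the strains overlapped across tissues.

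Sp1 and Ppara were also among the named rises. Sp1, a factor that binds GC-rich promoters, had 104 to 515 in DBA (median 219) and 30.9 to 417 in B6 (median 82.6), a difference of 1.32 ± 0.23 (SE, adjusted p = 0.00757), with spleen the exception at -0.26. Ppara, the nuclear receptor that drives fatty acid oxidation in the fasted liver, had 26 to 1223 in DBA (median 171) and 13.4 to 332 in B6 (median 82.1), a difference of 1.23 ± 0.19 (SE, adjusted p = 0.00273) in 10 of 10 tissues. In liver it had 1223 in DBA and 332 in B6. The fasting and lipid metabolism list, which does not hold Ppara, had no call among its 27 tested sets, beside 1.17% of all tested sets. Of the 27, 4 passed an unadjusted p of 0.05, and the list had a median difference of 0.051. Cyp4a14, a fatty acid hydroxylase that Ppara is known to induce, was not called and had 12.6 in DBA liver and 2099 in B6 liver.

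All 3 probe sets of Gnb1, a beta subunit of heterotrimeric G proteins, were higher in DBA. The set 94854_g_at had 124 to 525 in DBA (median 285) and 88 to 178 in B6 (median 128), a difference of 1.08 ± 0.12 (SE, adjusted p = 0.000161). The sets 94853_at and 97458_at differed by 0.91 ± 0.15 and 0.85 ± 0.11 (SE, adjusted p = 0.00431 and 0.000534). Each of the 3 was higher in DBA in 10 of 10 tissues. Sets of the same gene can share probes or a transcript end, so they are not independent measurements.

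Of the 14 tested circadian clock sets, 1 was called (7.14%), beside 1.17% of all tested sets, and a single call is no result about the list, whose median was 0.10. It was Per3, a period gene of the clock, with 98.7 to 462 in DBA (median 237) and 97.2 to 257 in B6 (median 125), a difference of 0.68 ± 0.15 (SE, adjusted p = 0.0399). The call of Per3 was lost in 7 of the 10 fits that left out 1 tissue. Csnk1e, a casein kinase that phosphorylates period proteins, is not on that list and had 14.1 to 387 in DBA (median 144) and 13.8 to 102 in B6 (median 76.3), a difference of 1.14 ± 0.24 (SE, adjusted p = 0.0336). It was higher in 8 of 10 tissues, and its call was also lost in 7 of those 10 fits. The time of day at which tissues were taken is not given in the sources used here.

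Among the other rises, Ocel1, a gene with an occludin-like domain, had 182 to 647 in DBA (median 274) and 42 to 395 in B6 (median 88.4), a difference of 1.56 ± 0.13 (SE, adjusted p = 5.47e-06), with an SD of the paired differences of only 0.40. The transcript 6330403K07Rik had 0.59 to 312 in DBA (median 53.1) and -3.28 to 54.3 in B6 (median 4.49), a difference of 1.73 ± 0.30 (SE, adjusted p = 0.008). It was above the floor in DBA in 8 tissues, with liver and spleen the exceptions. The array holds 3 sets of this transcript, of which 1 was tested.

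Ctsc, Ggcx and Aldh9a1 were among the named falls. Ctsc, cathepsin C, the protease that activates granule serine proteases, had -3.06 to 15.8 in DBA (median 7.67) and 3.62 to 370.4 in B6 (median 58.5) with 101020_at, a difference of -2.21 ± 0.40 (SE, adjusted p = 0.00952). Ggcx, the vitamin K dependent carboxylase of clotting factors, had 2.52 to 71.4 in DBA (median 14.1) and 21.5 to 154 in B6 (median 55.4), a difference of -1.75 ± 0.26 (SE, adjusted p = 0.00221). In these 2 genes 6 and 3 of the DBA arrays lay at the floor, so their folds depend on it. Aldh9a1, an aldehyde dehydrogenase of carnitine and GABA synthesis, had 1.79 to 483 in DBA (median 56.8) and 63.9 to 982 in B6 (median 151) with 96243_f_at. Its difference was -1.75 ± 0.24 (SE, adjusted p = 0.00156), with spleen the exception at 0.15. This set is of a kind that can be shared with related genes, so which gene it reads is uncertain.

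Agtrap, Spg21 and Sspn also fell in DBA. Agtrap, a protein that binds the angiotensin II type 1 receptor and promotes its uptake into cells, had -2.57 to 90.3 in DBA (median 32.4) and 28.8 to 286 in B6 (median 147), a difference of -1.90 ± 0.22 (SE, adjusted p = 0.000358). Spg21, an endosomal protein known in human spastic paraplegia, had 27.9 to 162 in DBA (median 68.9) and 73.6 to 644 in B6 (median 289) with 95430_f_at. Its difference was -1.83 ± 0.21 (SE, adjusted p = 0.000353), and this set too is of a kind that can be shared with related genes. Sspn, sarcospan, a membrane protein of the dystrophin complex, had 5.02 to 606 in DBA (median 40.4) and 18.3 to 1794 in B6 (median 111), a difference of -1.39 ± 0.16 (SE, adjusted p = 0.000289). These 3 sets were lower in DBA in 10 of 10 tissues, and the strain ranges overlapped across tissues in each. In muscle, where the dystrophin complex is abundant, Sspn had 481 in DBA and 990.0 in B6.

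The steadiest smaller falls, all in 10 of 10 tissues, were those of Smndc1, a splicing factor, Zbtb45, a zinc finger protein, Senp6, a SUMO protease, and Micos10, a subunit of the complex that shapes mitochondrial cristae. Their log2 differences were -1.06 for Smndc1, -0.95 for Zbtb45, -0.60 for Senp6 and -0.59 for Micos10, with SDs of the paired differences between 0.25 and 0.28 (adjusted p = 3.19e-05, 0.00166, 0.0258 and 0.00201). Smndc1 had 83.9 to 203 in DBA (median 110.4) and 162 to 431 in B6 (median 250.0). A second tested set of Zbtb45 differed by -0.24 and was not called. The calls of Senp6 and Micos10 were lost in 5 and 4 of the 10 fits that left out 1 tissue. Phlda1, a pleckstrin homology-like protein, was the opposite case, with differences between -3.06 in kidney and 0.22 in liver around a mean of -1.34 ± 0.30 (SE, adjusted p = 0.0371), and its call was lost in 7 of those fits.

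Where a called gene had other tested probe sets, these often did not show the difference. Of 86 called genes, 25 had at least 2 tested sets, and in 2 of these, Glo1 and Gnb1, every tested set was called in the same direction. In 22 genes at least 1 set was called and at least 1 was not, and Pdxdc1 was the gene with calls in both directions. The widest gaps between a called fall and an uncalled set of the same gene were those of 6 genes. Ctsc had -2.21 with 101020_at and -0.077 with 101019_at, and Rpp14 had -1.63 with 160474_at and 0.27 with 99182_at. Prdx2 had -1.46 with 99608_at and 0.23 with 100331_g_at. Cpsf2, of the complex that cleaves messenger RNA before polyadenylation, had -1.52 and 0.031, Tbc1d15, a regulator of the GTPase Rab7, had -1.22 and 0.32, and Eloa, elongin A, had -1.01 and 0.36, all as log2 differences.

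The uncalled partner sets differed less, but not all were level. Eloa 101943_at was higher in DBA in 10 of 10 tissues, by 0.36 ± 0.089 (SE, adjusted p = 0.0613). The uncalled sets of Rpp14 and Tbc1d15 were higher in DBA in 9 of 10 tissues, and that of Cpsf2 ran from -1.49 to 1.34 by tissue. The Prdx2 set 100331_g_at had 438 to 3844 in DBA (median 1502) and 606 to 3272 in B6 (median 1219.8). The Ctsc set 101019_at had 13.2 to 547 in DBA (median 187) and 21.9 to 624 in B6 (median 208). Which of 2 disagreeing sets follows the amount of RNA was not tested, and a fall seen in 1 set only cannot be told apart from a sequence difference under its probes.

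Sets that rose stood beside uncalled sets in Acp1, Fam32a and H2-D1. Acp1, a low molecular weight phosphatase, had 4 tested sets, of which 93219_at and 96052_at rose by 0.94 and 0.63 while 96054_f_at and 96053_i_at had 0.27 and -0.11. The 2 calls of Acp1 were lost in 7 and 5 of the 10 fits that left out 1 tissue. Fam32a had 0.75 and 0.62 in its called sets and -0.15 in the third, and the call of 97865_g_at was lost without adrenal. H2-D1, a class I antigen-presenting heavy chain, had 1.11 ± 0.16 (SE, adjusted p = 0.00192) with 97541_f_at, and 0.44 and 0.06 with its 2 uncalled sets. The H2-D1 set belongs to a kind that can be shared with related class I genes, so which class I gene it reads is uncertain. It was the single call among 22 tested class I and antigen processing sets (4.55%, beside 1.17% of all tested sets), whose median was -0.04.

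**Figure D3:**
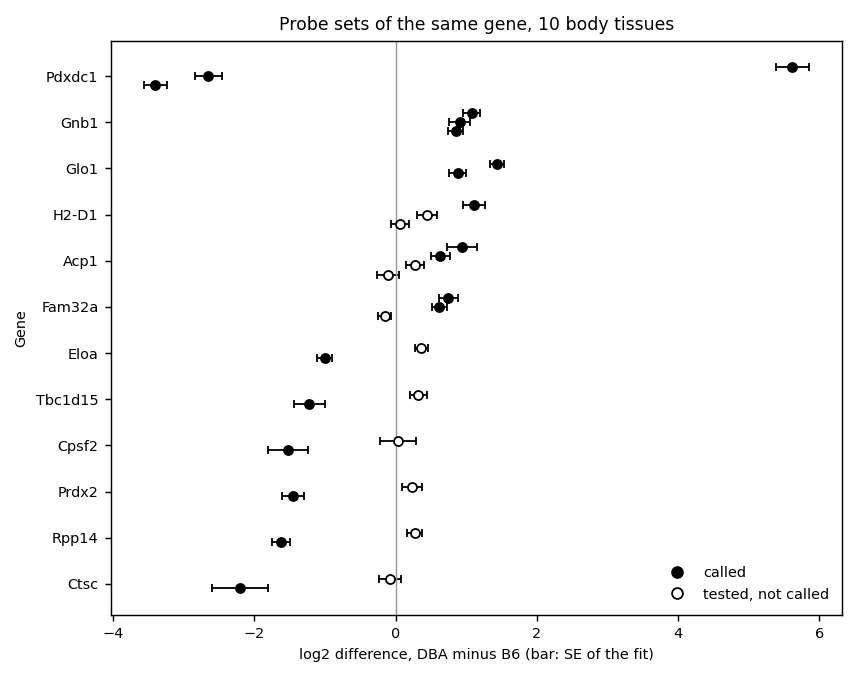
Log2 difference, DBA minus B6, over the 10 body tissues for each tested probe set of 12 genes, with bars of 1 SE. Filled points are called and open points are tested but not called; the 3 Pdxdc1 sets lie at 5.62, -2.65 and -3.40, the 3 Gnb1 sets lie together between 0.85 and 1.08, and in Rpp14, Prdx2, Cpsf2, Tbc1d15 and Eloa an open point lies to the right of 0 while the filled point lies to the left.

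Some called probe sets are shared by several genes by annotation. The largest rise among them was that of 102234_at, assigned to Gm2036 and 1810037I17Rik, with 12.2 to 886 in DBA (median 233) and 9.77 to 34.1 in B6 (median 19.6), a difference of 3.18 ± 0.44 (SE, adjusted p = 0.00156) in 10 of 10 tissues. The set 101575_i_at of Serpina1a to Serpina1e, which encode alpha-1-antitrypsin made mainly in liver, had 20.5 to 11667 in DBA (median 287) and 2.45 to 7137 in B6 (median 25.8), a difference of 2.74 ± 0.59 (SE, adjusted p = 0.0357). In liver itself it had 11667 in DBA and 7137 in B6. Its call was lost in 6 of the 10 fits that left out 1 tissue. Liver markers also differed between strains in adrenal and thymus, as given above, and their part in this result was not tested.

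Falls among shared sets included 2 of the interferon-inducible Ifi200 family, which senses foreign DNA. The set 93321_at of Ifi203 and its relatives differed by -1.57 on the log2 scale, and 94224_s_at of Ifi204, Ifi205, Ifi211 and Mndal by -1.12 (adjusted p = 0.0336 and 0.0404). In thymus 93321_at had 15.4 in DBA and 125 in B6, and in spleen it had 437 in DBA and 709 in B6. Each call was lost in 6 of the 10 fits that left out 1 tissue. The interferon-induced list with single-symbol sets had no call among 28 tested sets, beside 1.17% of all tested sets. Of the 28, 8 passed an unadjusted p of 0.05, and the list had a median of -0.24.

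Most gene lists held no call at all, beside 1.17% called over all tested sets. At that share, 0 calls in lists of 3 to 83 sets is no result about them. Besides the fasting and interferon-induced lists above, limma called 0 sets among 21 of complement, 28 of cytochrome P450, 6 of natural killer cell receptors, 30 of immunoglobulin, 3 of major urinary proteins, 13 of kallikreins and the renin-angiotensin system, 11 of serine and one-carbon synthesis, 83 of the mitochondrial respiratory chain, 31 of cytosolic ribosomal proteins, 28 of the cell cycle and 28 of immediate early and stress genes. At an unadjusted p under 0.05 these lists held between 0 and 12 sets, and the lists differ in size. The 12 were among 83 respiratory chain sets, while the cell cycle had 9 of 28 and natural killer cell receptors 4 of 6. Serine and one-carbon synthesis had 0 of 11 and major urinary proteins 0 of 3. Over all tested probe sets it was 1458 of 9149. List medians lay between -0.52 for kallikreins and the renin-angiotensin system and 0.13 for major urinary proteins, beside -0.03 over all tested probe sets.

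Cell cycle sets, which mark dividing cells, were lower in DBA in several tissues and higher in spleen. Their median difference over 28 sets was -1.47 in heart, -1.31 in liver, -1.11 in kidney and -0.79 in muscle, and 1.19 in spleen. In DBA spleen 19 of the 28 were at least 2-fold higher and 1 was at least 2-fold lower, while in DBA heart 21 were at least 2-fold lower and 0 were higher. Neutrophil markers moved the same way, with medians over 6 sets of -1.02 in heart, -0.79 in liver, -1.04 in kidney and -0.88 in muscle. Red cell markers had medians over 3 sets of -2.71 in heart, 0.36 in liver, -0.998 in kidney, 0.062 in muscle and 0.85 in spleen. In kidney they summed to 2354 in DBA and 4726 in B6. The part of either cell type in the cell cycle differences was not tested. In the DBA spleen array all 6 neutrophil sets were at least 2-fold higher than in B6, with a summed intensity of 4079 in DBA and 994 in B6. The 3 red cell sets summed to 15667 in DBA spleen and 12029.7 in B6 spleen, and 1 of the 3 was at least 2-fold higher in DBA. The red cell set of Slc4a1, the anion exchanger of red cells, had 2449 in DBA spleen and 489.6 in B6 spleen. Heme synthesis sets were higher as given for Alad. Each of these values compares 1 array with 1 array, so they carry no replicate, and the part of blood-forming cells in the Alad difference of spleen was not tested; without spleen the call of Alad held.

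**Figure D4:**
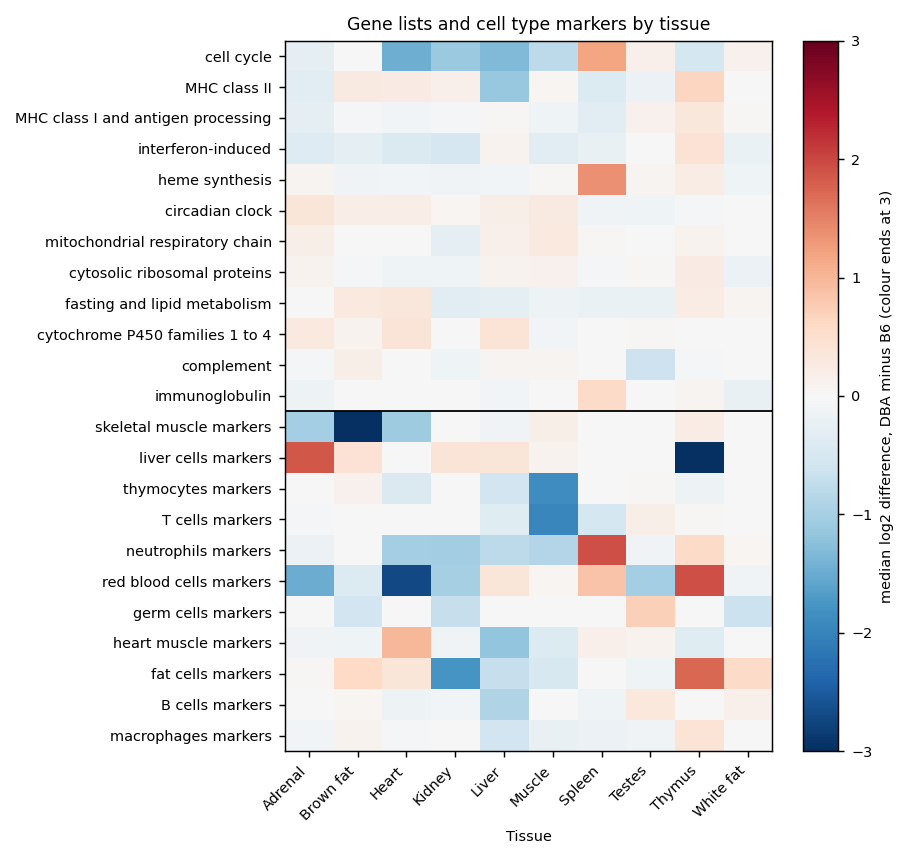
Median log2 difference, DBA minus B6, of 12 gene lists (above the line) and 11 sets of cell type markers (below it) in each of the 10 body tissues. Spleen is red for cell cycle, heme synthesis and neutrophil markers, while skeletal muscle markers are deep blue in brown fat and liver markers deep blue in thymus.

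The tissues differed in how far the 2 strains lay apart. The share of tested probe sets at least 2-fold apart ran from 6.25% in spleen to 19.6% in liver. In liver 480 sets were at least 2-fold higher in DBA and 1315 lower, and in kidney 339 were higher and 857 lower. The differences of kidney and liver resembled each other most among all pairs of tissues, with r = 0.49 across 9149 probe sets, which are not independent. Of these sets, 406 were at least 2-fold lower in DBA in both tissues, 109 were higher in both, and 36 went opposite ways. The DBA liver and DBA kidney arrays had the lowest median intensities of the 20, that of liver being 38.4, and the highest and the second highest shares at the floor among DBA arrays, 25.8% and 24.5%. Without these 2 tissues 75 probe sets were called, 27 higher and 48 lower, and 63 of the original 107 were among them.

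For each tissue the largest difference among probe sets that were not called over the 10 tissues was also looked up. In brown fat, Acta1, skeletal muscle actin, had 14.4 in DBA and 5655 in B6, beside the muscle markers given above. In thymus, Alb, serum albumin, had 21.3 in DBA and 2188 in B6, beside the liver markers. In kidney, Hdc, which makes histamine, had 1377 in DBA and 4.47 in B6. In heart, Pam, which amidates peptide hormones, had 1984 in DBA and 21.8 in B6, and in spleen Adamdec1, a metalloprotease of immune cells, had 0.11 in DBA and 474 in B6. In thymus, H2-K1, a class I heavy chain, had 829 in DBA and 15.7 in B6 with a set that was higher in DBA in 9 of 10 tissues and missed the threshold (adjusted p = 0.0672). Each of these single-tissue values rests on 1 array of each strain.

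The same strains could be compared in separate arrays of the forebrain. The series held 5 DBA and 7 B6 arrays of hippocampus CA1, hippocampus CA3 and motor cortex, and of 6700 probe sets tested there 238 were called (3.55%), 96 higher (1.43%) and 142 lower (2.12%) in DBA. Of the 107 body calls, 90 were tested in the forebrain. Their sign was the same in 85 (94.4%), beside 50.5% of the 6392 probe sets tested in both. Called in the same direction were 52, which is 48.6% of the body calls and 21.8% of the forebrain calls, and none was called in the opposite direction. Of the 41 tested body rises 20 were called higher, and of the 49 tested body falls 32 were called lower. Forebrain and body arrays are different arrays, but whether they share animals is not given.

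Single genes carried over with much the same size. Snhg6 had 32.3 to 82.2 in the 2 DBA arrays of CA1 and 433 to 757 in the 3 B6 arrays, and its forebrain difference was -3.48 ± 0.24 (SE, adjusted p = 5.42e-07). Pdxdc1 97713_at had 326 to 343 in DBA motor cortex and -4.7 to 3.36 in B6 motor cortex, and a forebrain difference of 4.95 ± 0.19 (SE, adjusted p = 6.39e-10). Alad and Glo1 93269_at differed by 1.48 and 1.06 in the forebrain (adjusted p = 2.46e-06 and 4.01e-05). Snhg6, Pdxdc1, Alad and Glo1 were thus called in both sets of arrays, and for Snhg6 and Pdxdc1 97713_at the strains overlapped in neither.

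A few genes had a larger forebrain difference than a body difference. The Gnb1 sets 94854_g_at and 94853_at differed by 2.01 and 2.55 in the forebrain, against 1.08 and 0.91 in the body, and Prdx2 99608_at differed by -2.64, against -1.46 in the body. Per3 differed by 1.40 (adjusted p = 2.99e-06) in the forebrain, with 217 in the DBA array of CA3 and 91.9 and 97.6 in the 2 B6 arrays. Agtrap, by contrast, had a forebrain difference of -0.40 and was not called there, and 6330403K07Rik, with at least 1447 in every DBA forebrain array, had 0.31. Whether body and forebrain differences differ was not tested. H2-Ea was too dim to be tested in the forebrain, with at most 14.1 in DBA and 11.3 in B6.

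**Figure D5:**
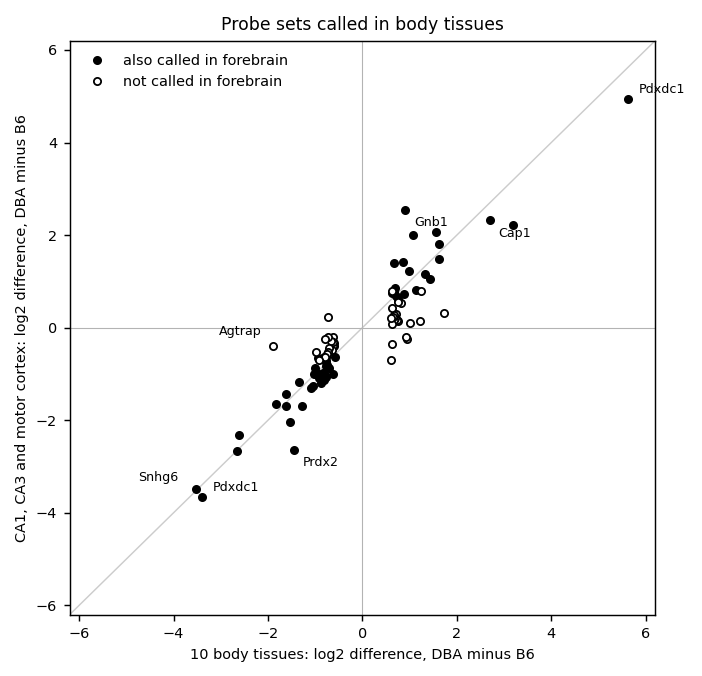
Log2 difference, DBA minus B6, in the 10 body tissues (x axis) and in CA1, CA3 and motor cortex (y axis) for the 90 probe sets called in the body and tested in the forebrain. Filled points (52) were also called in the forebrain and open points were not; most points lie near the grey line of equal differences, Gnb1 and Prdx2 lie farther from 0 in the forebrain, and Agtrap lies nearer to 0.

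The other body strains showed where DBA or B6 stood apart. Before these values, 1 array has to be set aside: the array labelled C3H white fat had values in the range of B6 at the probe sets that separate the strains. Its Snhg6 intensity was 335, against 25.2 to 69.8 in the other 9 C3H arrays and 319 to 677 in B6. Its Pdxdc1 97713_at intensity was 14.8, against 296 to 1459 in the other C3H arrays. Across 12422 probe sets it correlated with B6 white fat at r = 0.984, against 0.969 with DBA white fat, while the other 4 white fat arrays correlated with each other at 0.947 to 0.971. C3H ranges below leave this array out unless stated. It was not part of the DBA and B6 arrays.

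Against the mean of 129, AJ and C3H, which uses the same DBA arrays, DBA had 52 calls among 8921 tested sets (0.583%), 24 higher (0.269%) and 28 lower (0.314%), and 49 without the array labelled C3H white fat, 24 higher and 25 lower. Because the DBA arrays are shared, the values of both comparisons are only given side by side. Snhg6 differed by -3.53 from B6 and by -0.062 from the other strains without that array, and its intensity ran from 22.4 to 74.1 in 129 and from 23.6 to 57.6 in AJ, so B6 alone was high. In the same way 101741_at differed by -2.61 from B6 and -0.023 from the other strains, Prdx2 99608_at by -1.46 and 0.19, Spg21 by -1.83 and 0.061, and Cap1 by 2.69 and 0.0057. Alad and Glo1 93269_at also differed less from the other strains than from B6, by 0.16 and -0.34. For Glo1 93269_at the latter had an adjusted p of 0.0131 in limma but was under 1.5-fold, so it was not called. Its mean log2 level was 10.4 in AJ, beside 9.57 in DBA, 9.51 in 129, 9.83 in the 9 C3H arrays and 8.13 in B6.

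Other genes grouped DBA with C3H. Pdxdc1 97713_at had 296 to 1459 in 9 C3H arrays, beside 338 to 1489 in DBA, while 129 had 1.41 to 20.6 and AJ -3.19 to 10.6, as low as B6. Its set 94312_at had -1.68 to 70.3 in C3H, beside 20.9 to 105 in DBA, and 146 to 504 in 129. Rpp14 160474_at had a median of 22.2 in DBA and 23.6 over all 10 arrays labelled C3H, against 76.3 in 129 and 95 in AJ. Thumpd1 was low in DBA and AJ, with medians of 70.7 and 74, and high in 129 at 250.1 and in B6 at 231.

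H2-Ea differed among the strains too. In 129, most lines of which share the b haplotype of B6, the highest value over 10 tissues was 14.4, beside 8.14 in B6. In C3H it was 4053 in spleen but 19.2 in thymus, and in AJ 177 in spleen and 24.5 in thymus, beside 232 and 2004 in DBA spleen and thymus. Against the other strains the DBA difference was 3.00 on the log2 scale without the array labelled C3H white fat. The tissue order of H2-Ea thus differed between DBA and C3H, with 1 array for each tissue and strain and no test of that difference.

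Neighbouring called genes were looked up along the chromosomes, and how many adjacent pairs chance alone would give was not worked out. Among 6819 tested genes placed in order along the chromosomes, 85 called genes were placed, and 1 adjacent pair was called higher together. It was Pla2g6, a phospholipase, and Csnk1e. Ctsc and Fzd4, a Wnt receptor, formed an adjacent pair with opposite directions, Ctsc lower and Fzd4 higher in DBA. These pairs are named because the count was small, after their values were seen.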

How the data were processed

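The deposited values are 1 intensity per probe set and array on a linear scale, and the labels name no software, background correction or scaling by the authors. Of 12488 probe sets, 66 controls were left out. The remaining 12422 were named through the platform's annotation, 10833 with 1 symbol, 396 with several and 1193 with none. In all, 5.97% of the deposited intensities were below 0. Values under the 20th percentile of 148 arrays (10.4) were raised to it and expressed as log2, without further scaling. Of the 150 arrays, 2 with identical values were left out there, neither of them a body array of DBA or B6. A probe set was tested if, in 1 tissue or more, the mean of the strains was above 5.73, the median log2 value of all arrays. The fit used lmFit and eBayes (with trend) of limma 3.58.1, run in R 4.3.3, with strain and tissue as terms, which pairs the 2 arrays of a tissue. Both strains have 1 array for each tissue, so the pairing comes from the tissue labels. Benjamini-Hochberg adjustment of p covered all tested probe sets, and a call needed an adjusted p under 0.05 and 1.5-fold. The fit was tested on simulated data. Named were the 12 largest rises and falls, called list members, all reported strain loci, genes with disagreeing or several called sets, the steadiest and most varied genes, and for each tissue the largest uncalled difference. The arrays follow from their labels, but this comparison, its members, the lists and the rule were chosen with earlier results of these data known. Alternatives covered the floor, scaling, filter, tissue term, arrays fitted, RNA quality and leaving out tissues. The number of arrays limits the precision.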

Additional observations from a re-analysis of the deposited data

Results flagged for a closer look

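Among 59 single-probe-set results examined, 4 were flagged. Those of Alad, Prdx2 and Rpp14 were flagged because 1 tissue lay apart from the other 9. By that rule chance alone marks about 1 in 20 groups, so some of the 59 would be marked by chance. The Acp1 result was flagged by another rule, opposite signs in body and forebrain, to which that rate does not apply. The Alad difference of 3.58 (log2, DBA minus B6) in spleen lay far from the other 9 tissues, which ran from 0.64 to 1.94. The Prdx2 set 100331_g_at, not called over all tissues, had 1.46 in spleen, against -0.47 to 0.37 in the other 9 tissues. In the same spleen pair, the summed intensity of 3 red cell probe sets was 15667 in DBA and 12029.7 in B6, and the part of red cells in these 2 values was not tested. The Rpp14 set 99182_at had -0.41 in testes, against 0.16 to 0.50 in the other 9 tissues. The Acp1 set 93219_at was higher in DBA in all 10 body tissues, by 0.019 to 2.08, while its mean difference over the 3 forebrain tissues was -0.32, and the difference between body and forebrain was not tested.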

How the results depend on the processing

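The count of 107 calls (44 higher, 63 lower in DBA) stayed within 1.5 times under other floors, scalings and filters, from 74 to 112. It moved to 171 (75 higher, 96 lower) with the spread estimated over all 50 body arrays, and to 170 (72 and 98) when that fit left out the array labelled C3H white fat. With no replicate block, that is without tissue as a term, it was 12 (4 and 8), since tissues then add to the spread. Higher calls numbered 26 with 1 probe set kept for each gene and 27, new ones included, without kidney and liver. The 3 tissues whose B6 titles lack the code that the other 7 share gave 3 calls (1 and 2), from 3 pairs. Without adrenal, brown fat, muscle and thymus there were 20 (6 and 14), from 6 pairs. Leaving out each tissue in turn gave 73 to 115 calls, 29 to 49 higher and 44 to 66 lower, with the fewest without kidney. In the forebrain, the 238 calls (96 and 142) became 147 (57 and 90) with no replicate block, and 63 higher calls were left with no filter on dim probe sets. Leaving out each forebrain array gave 169 to 279 calls, 57 to 109 higher and 112 to 185 lower, and the lowest of each came without the DBA array of CA3. Against the other 3 strains, 52 calls became 9 (5 and 4) with no replicate block, and leaving out each tissue gave 38 to 74, 17 to 32 higher and 18 to 42 lower, the 18 without muscle. Of 46 named calls, 35 held without each tissue in turn and 11 did not. Over 59 named results and up to 25 settings each, 1212 of 1435 comparisons kept their call status, 223 lost the call and 0 reversed. Reversed means that a called result changed sign or that an uncalled result was called against its sign. An uncalled result that changed sign without a call counted as kept. Examples were Nnt, from -0.61 to 0.65 over the settings, and Cpsf2 160542_at, from -0.93 to 0.44. A planned floor at the 5th percentile was not run, since that value, -1.06, is below 0; the 10th percentile, 3.28, was chosen after seeing the data, as were the settings that left out kidney and liver, the 4 tissues and the array labelled C3H white fat. Where the cause of a shift is not named above, the cause was not tested.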

Other observations

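The adrenal and the heart gave the other large values of single arrays. In the adrenal, Serpina1c had 441 in DBA and 24.1 in B6, beside the liver markers. In heart, 2 of the 10 skeletal muscle sets were at least 2-fold higher and 5 at least 2-fold lower in DBA, and 7 heart muscle sets summed to 45912 in DBA and 36493 in B6. The 3 red cell sets of heart summed to 12597 in DBA and 21841 in B6. Kallikrein and renin-angiotensin sets, which encode serine proteases and a blood pressure system, had a median difference of -1.04 in kidney, with 7 of 13 at least 2-fold lower in DBA. Natural killer cell receptor sets had a median of -1.21 in spleen, with 3 of 6 at least 2-fold lower in DBA. Germ cell markers were read in white fat of B6, where Prm1, which packs sperm DNA, had 7.25 in DBA and 385.6 in B6. In muscle the order was the other way, with Prm1 at 172 in DBA and 9.13 in B6.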
